A study of Mus musculus with 9 samples.

Results

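The megalin route of protein uptake in the kidney and the lysosomal proteases at its end were followed through 9 genes: the uptake genes Lrp2, Cubn, Amn and Dab2, and the protease genes Ctsb, Ctsd, Ctsl, Lgmn and Dpp7. They were taken by gene name from the 32593 genes of the deposited table, each name matching 1 row, and all 9 were among the 12507 genes tested. Whole-kidney RNA of mice given AngII (angiotensin II, the pressor hormone of the renin system) was sequenced in 9 libraries, 3 in each of 3 genotypes. GRPR-AngII mice carried CDH16 Cre and a floxed GRPR allele (CDH16 Cre+/GRPRfl/fl). CDH16KO-AngII mice carried CDH16 Cre and a floxed allele written as Tmem (CDH16 Cre+/Tmemfl/fl). AngII mice carried the same floxed Tmem allele (Tmemfl/fl) with no Cre given. Every group received AngII, so none shows the effect of AngII itself, and GRPR-AngII differs from AngII in both Cre and the floxed allele. The promoter named for the Cre is that of Cdh16, a cadherin made by tubule epithelium of the kidney, so cells outside that epithelium would keep the floxed allele. The labels give no age, sex, AngII dose or pooling of animals, and they do not say that each library is its own animal. The p-values therefore measure only how far these libraries spread, which may be technical.

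In the kidney, small proteins pass the glomerular filter and are taken back by proximal tubule cells. Megalin (Lrp2) and cubilin (Cubn) bind them at the brush border, amnionless (Amn) anchors cubilin in the membrane and brings it to the surface, and Dab2 links the megalin tail to the clathrin coat. Endosomes then deliver the cargo to acid lysosomes, where cathepsins B, D and L (Ctsb, Ctsd, Ctsl) and legumain (Lgmn, which cuts after asparagine and also processes cathepsin precursors) break it down, and Dpp7 removes dipeptides from peptide ends. In bulk kidney RNA, fewer cells of a type and less RNA per cell cannot be told apart.

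None of the 9 genes passed the edgeR quasi-likelihood test (Benjamini-Hochberg adjusted p under 0.05 over all genes tested) in any of the 3 comparisons. That threshold called 0% of genes in GRPR-AngII against AngII (0 of 12507, with 843 at an unadjusted p under 0.05, and 45 calls by DESeq2), 0.168% in CDH16KO-AngII against AngII (21 genes) and 0.144% in GRPR-AngII against CDH16KO-AngII (18 genes). Dpp7 stood apart from the other 8 genes in having 3 groups of libraries that did not overlap, highest in GRPR-AngII and lowest in AngII. How many of all genes tested had 3 such groups was not counted. Amn was higher in every GRPR-AngII library than in any AngII library. For the remaining 7 genes the groups overlapped, apart from Ctsd in CDH16KO-AngII against AngII. All 7 had their highest CDH16KO-AngII value in library 2 of that group.

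**Figure D1:**
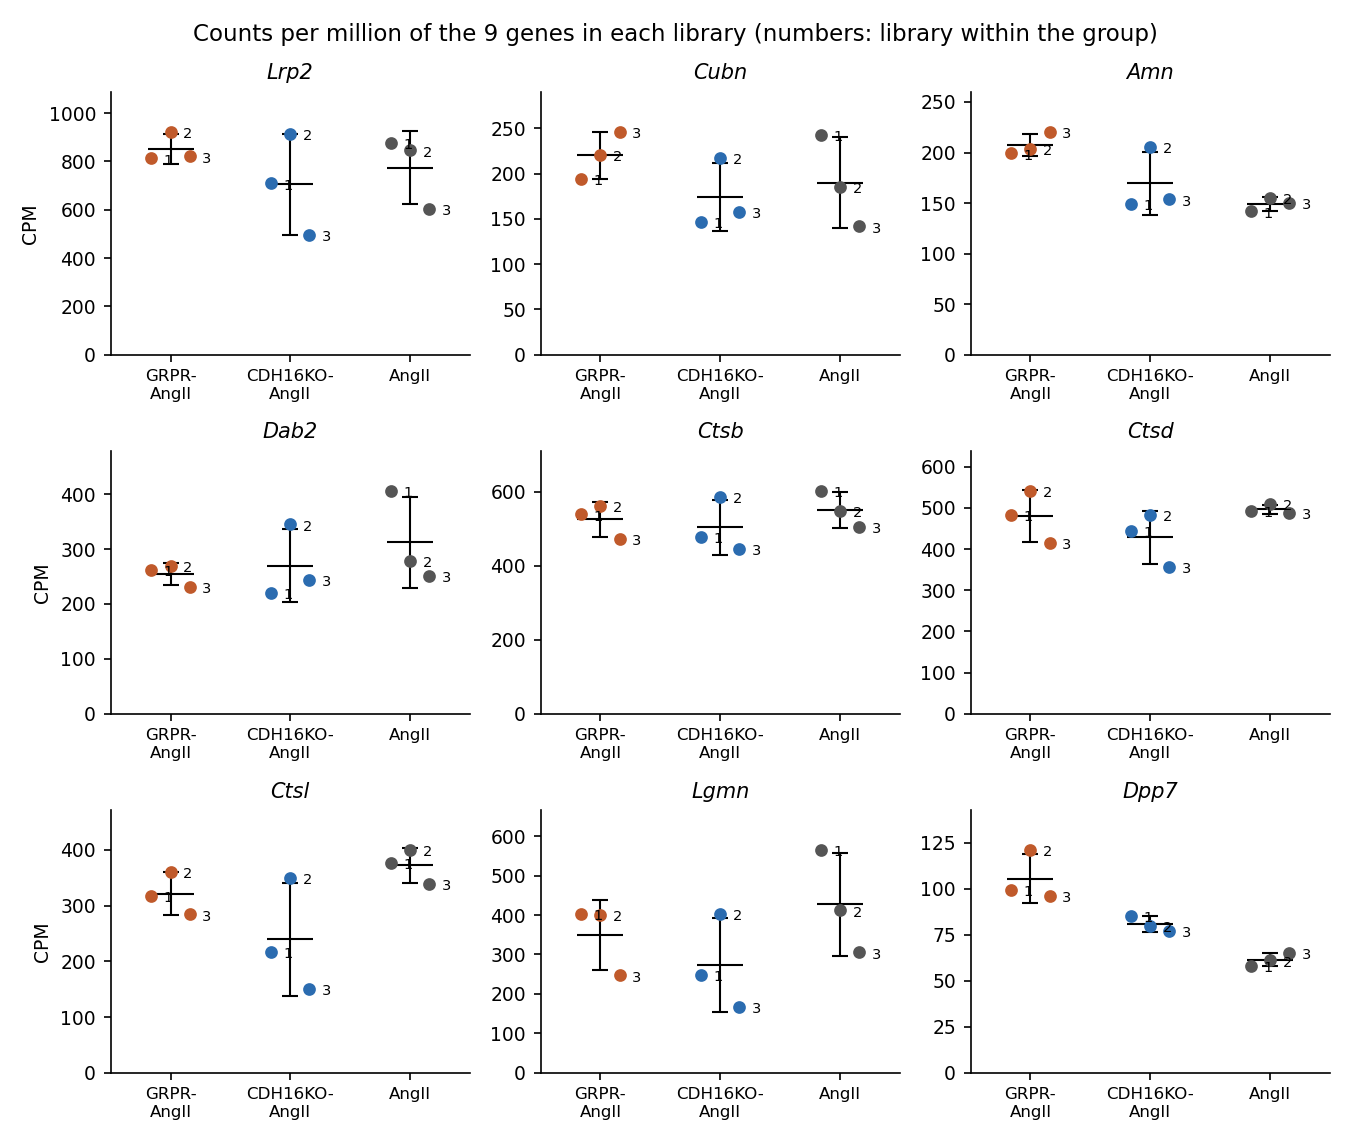
CPM (counts per 1000000 of the TMM-scaled library, linear axis from 0) of the 9 genes in each library, with the mean and SD of each group as black bars and the library number beside each point. The 3 groups are separated for Dpp7, the GRPR-AngII and AngII libraries for Amn, and CDH16KO-AngII library 3 is the lowest of the 9 libraries for Lrp2, Ctsb, Ctsd, Ctsl and Lgmn.

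Among the libraries, totals ran between 40731748 and 60449117 counts, and the 9 genes together took 0.216% to 0.371% of them. Mitochondria-coded genes took 19.1% to 24.6% of counts in GRPR-AngII, 16.1% to 26.4% in CDH16KO-AngII and 17.2% to 21.5% in AngII, and CDH16KO-AngII libraries 3 and 2 had the highest and the lowest share of all 9. The labels do not say which gene Tmem stands for. STING stands in the title of the series, and Tmem173 is an older symbol of its gene Sting1. Sting1 (ENSMUSG00000024349) stood at 2.90, 2.90 and 2.68 CPM in GRPR-AngII, 2.15, 2.24 and 2.04 CPM in CDH16KO-AngII, and 4.62, 1.77 and 5.33 CPM in AngII, so AngII library 2 lay below all CDH16KO-AngII libraries. GRPR was not analysed here. The proximal tubule markers that check the tissue were all present, led by Kap (androgen-regulated protein of the proximal tubule) at a mean of 30517 FPKM over the 9 libraries.

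Dpp7 (ENSMUSG00000026958, GRCm38 chr2:25352276-25356353, minus strand), which encodes dipeptidyl peptidase 7, had 99.4, 121 and 96.2 CPM in the GRPR-AngII libraries, 85.4, 79.6 and 77.3 CPM in CDH16KO-AngII, and 58.1, 61.0 and 65.2 CPM in AngII. Every GRPR-AngII library lay above every CDH16KO-AngII library, and every CDH16KO-AngII library above every AngII library. These values rest on 2864 to 7523 counts per library. GRPR-AngII stood 1.72-fold over AngII (log2 fold change 0.78, SE 0.13, 95% interval 0.49 to 1.07, higher in 3 of 3 libraries), the 5th smallest p of all genes tested, but with an edgeR adjusted p of 0.273. DESeq2, run as an alternative, called this difference (adjusted p = 6.71e-05), and the adjusted p over all alternatives ran up to 0.999. CDH16KO-AngII stood 1.32-fold over AngII (log2 fold change 0.40, SE 0.13, edgeR adjusted p = 0.421). GRPR-AngII stood 1.31-fold over CDH16KO-AngII (log2 fold change 0.39, SE 0.13, edgeR adjusted p = 0.509). Leaving out any 1 library kept the GRPR-AngII against AngII value between 0.67 and 0.85. An exact two-sided permutation test of 3 against 3 libraries gave p = 0.1 for each of these differences, the smallest it can give.

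Amn (ENSMUSG00000021278, chr12:111271095-111276426, plus strand), the membrane anchor of cubilin, had 199, 204 and 220 CPM in GRPR-AngII, 149, 206 and 154 CPM in CDH16KO-AngII, and 142, 155 and 150 CPM in AngII. The GRPR-AngII libraries all lay above the AngII libraries, while CDH16KO-AngII library 2 reached the GRPR-AngII range and its other 2 libraries stayed at the AngII level. GRPR-AngII stood 1.39-fold over AngII (log2 fold change 0.48, SE 0.15, 95% interval 0.15 to 0.81, edgeR adjusted p = 0.685), and no alternative called it (lowest adjusted p 0.191, with DESeq2). The difference of CDH16KO-AngII from AngII was 0.19 on the log2 scale (SE 0.15) and 0.024 without CDH16KO-AngII library 2.

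Groups whose libraries do not overlap were common among all genes: 6.85% of the genes tested were higher without overlap in GRPR-AngII than in AngII, 6.65% higher and 5.5% lower in CDH16KO-AngII than in AngII, and 4.66% higher in GRPR-AngII than in CDH16KO-AngII. Of the 9 genes, Dpp7 and Amn were higher without overlap in GRPR-AngII than in AngII, Dpp7 was higher and Ctsd lower in CDH16KO-AngII than in AngII, and Dpp7 was higher in GRPR-AngII than in CDH16KO-AngII. At an unadjusted p under 0.05, edgeR gave Dpp7 and Amn in GRPR-AngII against AngII (6.74% of all genes), Dpp7 and Ctsl in CDH16KO-AngII against AngII (8.45% of all genes), and Dpp7 in GRPR-AngII against CDH16KO-AngII (6.24% of all genes). The 2 comparisons against AngII share the AngII libraries, and their values are given side by side without a test of their likeness.

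**Figure D2:**
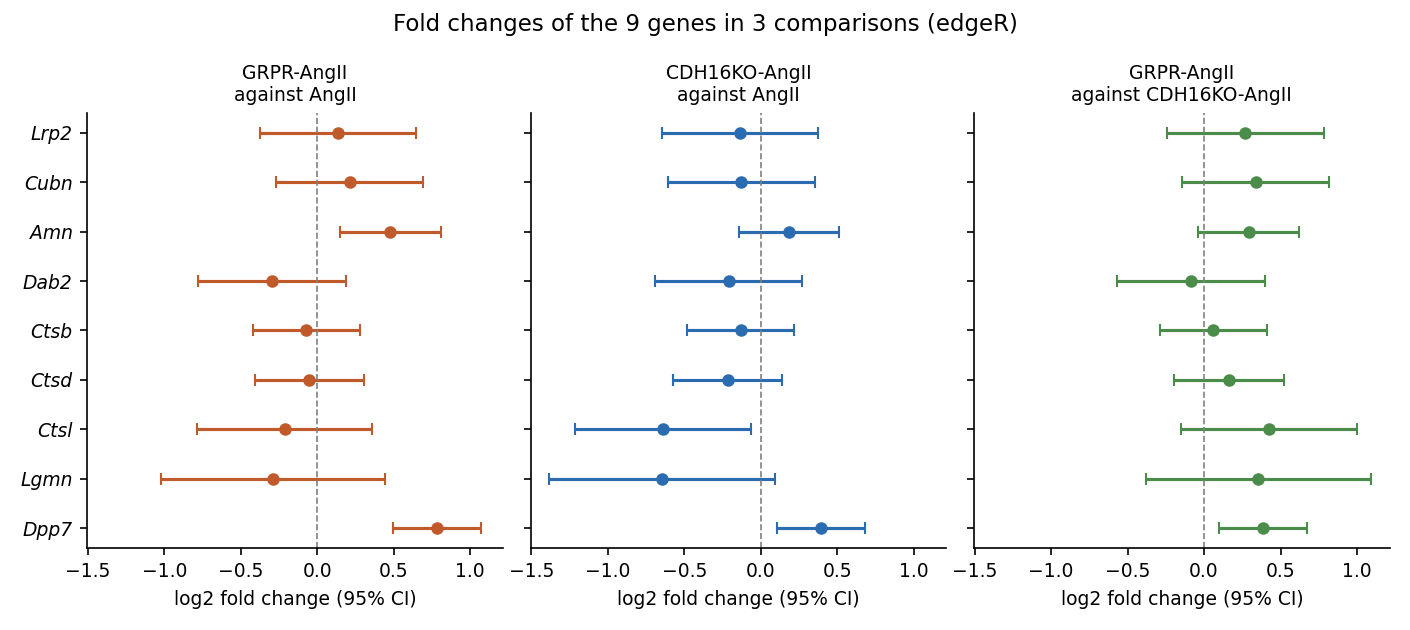
Log2 fold changes of the 9 genes from the edgeR fit over 9 libraries, with 95% intervals, in GRPR-AngII against AngII, CDH16KO-AngII against AngII and GRPR-AngII against CDH16KO-AngII. Intervals of single genes leave out 0 for Amn and Dpp7 in the first panel, for Ctsl and Dpp7 in the second and for Dpp7 in the third, and no adjusted p is under 0.05.

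Of the 2 receptors, Lrp2 (ENSMUSG00000027070, chr2:69424340-69586065, minus strand) had 812, 922 and 821 CPM in GRPR-AngII, 709, 914 and 495 CPM in CDH16KO-AngII, and 876, 846 and 602 CPM in AngII. The ranges of all 3 groups overlapped, with CDH16KO-AngII library 3 lowest and GRPR-AngII library 2 highest. The log2 fold change was 0.14 in GRPR-AngII against AngII (SE 0.23, 95% interval reaching 0.65) and −0.13 in CDH16KO-AngII against AngII (SE 0.23, 95% interval −0.65 to 0.38). The first of these became −0.015 without AngII library 3, and the other 0.067 without CDH16KO-AngII library 3, so their direction rested on single libraries.

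Cubn (ENSMUSG00000026726, chr2:13276338-13491813, minus strand) had 194, 220 and 246 CPM in GRPR-AngII, 147, 218 and 158 CPM in CDH16KO-AngII, and 243, 186 and 142 CPM in AngII. All 3 groups overlapped. Its log2 fold change was 0.21 in GRPR-AngII against AngII (SE 0.22) and −0.13 in CDH16KO-AngII against AngII (SE 0.22), and the second became 0.089 without AngII library 1. The ratio of Lrp2 to Cubn in FPKM, 2 receptors that work together, was 3.49 ± 0.437 in GRPR-AngII, 3.63 ± 0.763 in CDH16KO-AngII and 3.70 ± 0.432 in AngII (SD, n = 3 each), and the groups overlapped. The ratio of Amn to its partner Cubn was 7.69 ± 0.565 in GRPR-AngII, 7.93 ± 0.288 in CDH16KO-AngII and 6.70 ± 1.92 in AngII, with AngII libraries on both sides of the others.

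Dab2 (ENSMUSG00000022150, chr15:6299788-6440712, plus strand), the adaptor between megalin and clathrin, had 262, 269 and 231 CPM in GRPR-AngII, 220, 345 and 244 CPM in CDH16KO-AngII, and 406, 279 and 251 CPM in AngII. AngII library 1 was the highest and CDH16KO-AngII library 1 the lowest, and the groups overlapped. The log2 fold change was −0.30 in GRPR-AngII against AngII (SE 0.22) and −0.21 in CDH16KO-AngII against AngII (SE 0.22). Between the Cre-positive groups, GRPR-AngII differed from CDH16KO-AngII by −0.085 (SE 0.22). Without AngII library 1 the first 2 values were −0.061 and 0.025, and without CDH16KO-AngII library 2 the third was 0.13.

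The cathepsins and legumain had lower means in CDH16KO-AngII than in AngII, and none passed the test. The 18 proximal tubule markers had a median log2 fold change of −0.24 in the same comparison, with 14 of the 18 negative, and their part in the protease levels was not tested. Relative to the marker mean of each library, CDH16KO-AngII differed from AngII by −0.51 for Ctsl and −0.48 for Lgmn. The differences were 0.071 for Ctsb and −0.018 for Ctsd. This scale was chosen after seeing the data, and of these genes only Ctsl had no overlap on it. Ctsl (ENSMUSG00000021477, chr13:64359337-64370890, minus strand), a cysteine endopeptidase of the lysosome, had 318, 361 and 284 CPM in GRPR-AngII, 217, 350 and 150 CPM in CDH16KO-AngII, and 377, 400 and 339 CPM in AngII. CDH16KO-AngII libraries 1 and 3 lay below every other library, while library 2 lay within the range of the other groups. CDH16KO-AngII stood at 0.643 of the AngII level (log2 fold change −0.64, SE 0.26, 95% interval −1.21 to −0.06, edgeR adjusted p = 0.562). The value was −1.02 without CDH16KO-AngII library 2 (edgeR adjusted p = 0.0597) and −0.39 without its library 3. In GRPR-AngII against AngII the log2 fold change of Ctsl was −0.21 (SE 0.26).

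Lgmn (ENSMUSG00000021190, chr12:102394084-102439813, minus strand) had 403, 400 and 247 CPM in GRPR-AngII, 249, 404 and 168 CPM in CDH16KO-AngII, and 565, 412 and 305 CPM in AngII. It had the widest spread of the 9 genes, and all 3 groups overlapped. CDH16KO-AngII stood at 0.640 of the AngII level (log2 fold change −0.64, SE 0.33, edgeR adjusted p = 0.623), −1.04 without CDH16KO-AngII library 2 and −0.39 without its library 3. GRPR-AngII against AngII gave −0.29 (SE 0.33), or −0.036 without AngII library 1.

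Ctsd (ENSMUSG00000007891, chr7:142375911-142388038, minus strand), the aspartic protease of the lysosome, had 484, 541 and 414 CPM in GRPR-AngII, 445, 483 and 357 CPM in CDH16KO-AngII, and 493, 509 and 488 CPM in AngII. The AngII libraries lay within a 1.04-fold range of each other and all above the CDH16KO-AngII libraries, the closest 2 being 483 against 488 CPM. The log2 fold change of Ctsd was −0.21 in CDH16KO-AngII against AngII (SE 0.16, 95% interval reaching 0.14, edgeR adjusted p = 0.700). It was −0.051 in GRPR-AngII against AngII (SE 0.16) and 0.047 without GRPR-AngII library 3.

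Ctsb (ENSMUSG00000021939, chr14:63122462-63145923, plus strand), a cysteine protease with both endopeptidase and carboxypeptidase action, had 539, 563 and 473 CPM in GRPR-AngII, 478, 587 and 446 CPM in CDH16KO-AngII, and 602, 549 and 504 CPM in AngII. All 3 groups overlapped, with log2 fold changes of −0.071 for GRPR-AngII against AngII, −0.13 for CDH16KO-AngII against AngII and 0.060 between GRPR-AngII and CDH16KO-AngII (SE 0.16 each). In the first comparison the 95% interval was −0.42 to 0.28. The first value was 0.0020 without GRPR-AngII library 3, and the third −0.020 without CDH16KO-AngII library 3.

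Ratios between proteases within a library do not depend on library scaling. Dpp7 over Ctsd in FPKM was 0.155 ± 0.00956 in GRPR-AngII, 0.135 ± 0.0183 in CDH16KO-AngII and 0.0870 ± 0.00600 in AngII (SD, n = 3 each), with every GRPR-AngII and CDH16KO-AngII library above the highest AngII library at 0.0939. Ctsl over Ctsd was 0.243 ± 0.00545 in GRPR-AngII, 0.197 ± 0.0575 in CDH16KO-AngII and 0.271 ± 0.0171 in AngII, where the lowest AngII library at 0.252 was above all GRPR-AngII libraries but below CDH16KO-AngII library 2 at 0.262. Exact two-sided permutation tests gave p = 0.1, the smallest possible, for Dpp7 over Ctsd in both comparisons against AngII and for Ctsl over Ctsd in GRPR-AngII against AngII. A ratio of 2 genes does not show which of them differs. Both ratios were chosen after values were seen and restate the counts given above.

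The spread between libraries of 1 group differed widely among the 9 genes. The pooled within-group SD of log2 CPM was 0.50 for Lgmn, 0.37 for Ctsl, 0.31 for Lrp2, 0.30 for Cubn and 0.29 for Dab2, all above the median of 0.24 over the genes tested. It was 0.17 for Ctsd, 0.16 for Amn and Ctsb, and 0.12 for Dpp7, and only 8.91% of genes tested had a smaller SD than Dpp7. CDH16KO-AngII library 3 was the lowest of the 9 libraries for 5 genes, while library 2 of that group was its highest for 8 genes, all but Dpp7. Within CDH16KO-AngII the proximal tubule markers moved with them when each marker had equal weight. The mean log2 CPM of the 18 markers was 9.36, 9.46 and 9.50 in GRPR-AngII. It was 9.12, 9.60 and 9.05 in CDH16KO-AngII, and 9.52, 9.52 and 9.35 in AngII. GRPR-AngII library 3 had the highest marker mean of its group but the lowest value for 6 of the 9 genes. AngII library 3 had the lowest marker mean of its group and the lowest value for 7 of the 9 genes. By this mean CDH16KO-AngII library 3 had the lowest and library 2 the highest marker level, and the same libraries had the highest and lowest mitochondrial share. By the summed CPM of the markers, CDH16KO-AngII library 1 was the lowest at 32857 CPM, against 34211 CPM in library 3 and 42069 CPM in library 2, and GRPR-AngII library 3 was the highest at 59168 CPM. Their part in the levels of the uptake and protease genes was not tested.

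**Figure D3:**
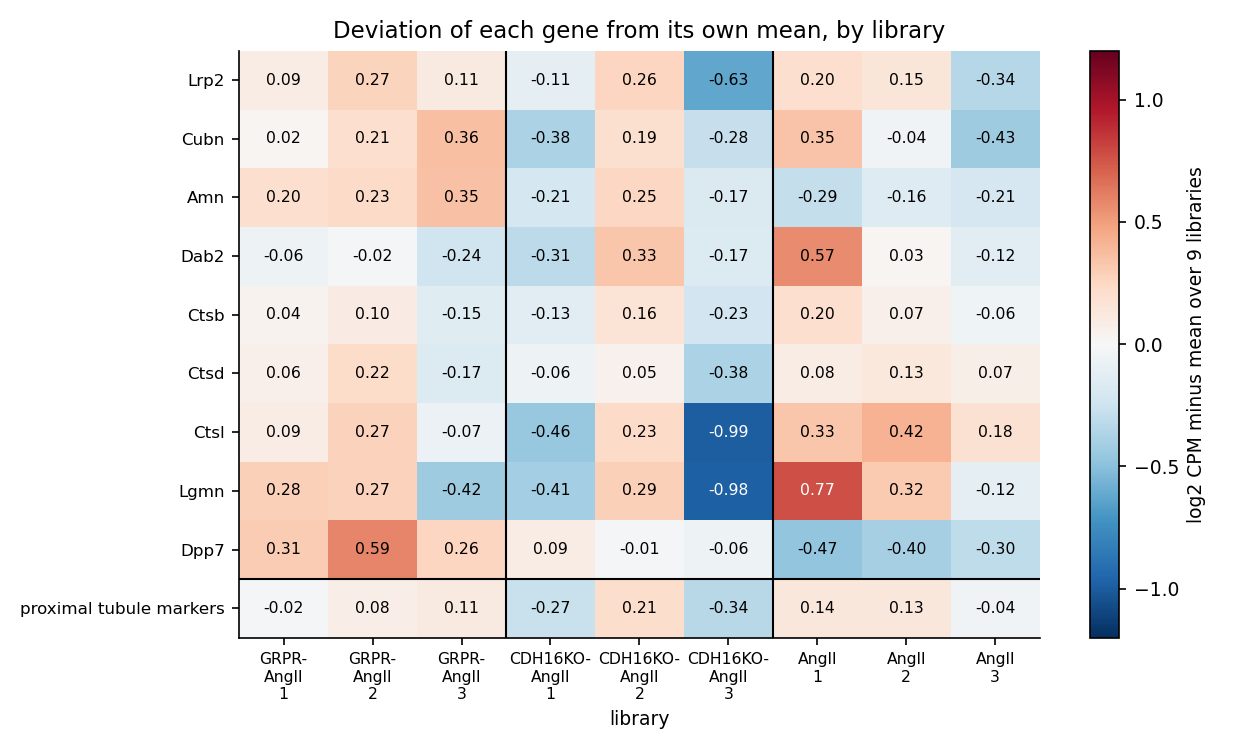
Heat map of log2 CPM minus the mean over 9 libraries for the 9 genes and for the mean of 18 proximal tubule markers (bottom row), red above and blue below that mean. CDH16KO-AngII library 3 is below the mean in every row, with Ctsl at −0.99 and Lgmn at −0.98, whereas Dpp7 is above its mean in every GRPR-AngII library and below it in every AngII library.

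The 9 genes were also set against the proximal tubule markers of the same library, as the log2 CPM of a gene minus the mean log2 CPM of the 18 markers. On this scale Amn was 0.50 higher in GRPR-AngII than in AngII and 0.38 higher in CDH16KO-AngII than in AngII, and Dpp7 was 0.80 and 0.60 higher in the same comparisons. In each case the libraries did not overlap (exact permutation p = 0.1, the smallest possible). The difference for Ctsl was −0.19 in GRPR-AngII and −0.51 in CDH16KO-AngII, also without overlap. For GRPR-AngII the gap for Ctsl was narrow, with its highest library at −0.967 and the lowest AngII library at −0.965. Dpp7 no longer had 3 separate groups, since GRPR-AngII and CDH16KO-AngII overlapped with a difference of 0.19 (exact permutation p = 0.5). The other 6 genes overlapped between groups. In CDH16KO-AngII against AngII, Ctsb turned to 0.071, Ctsd came to −0.018 and was no longer separated, and Lgmn stayed negative at −0.48. Lrp2 and Cubn turned positive there, at 0.049 and 0.094. This way of scaling was chosen after seeing the data, and the share of all genes tested that separate on it was not counted.

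The share of Dpp7 in the summed CPM of the 9 genes restates the counts given above on another scale. It was 3.18% ± 0.179 in GRPR-AngII, 2.94% ± 0.638 in CDH16KO-AngII and 1.88% ± 0.380 in AngII (SD, n = 3 each). The GRPR-AngII libraries all lay above AngII, and CDH16KO-AngII library 2 at 2.22% lay below AngII library 3 at 2.29%. Lrp2 took the largest share in every group, 25.7% ± 1.27 in GRPR-AngII, 24.6% ± 2.27 in CDH16KO-AngII and 23.1% ± 1.88 in AngII (SD, n = 3 each). A share of CPM grows with gene length, so it does not rank the genes by level. The share of Ctsl was 9.66% ± 0.332 in GRPR-AngII, 8.16% ± 1.54 in CDH16KO-AngII and 11.2% ± 1.05 in AngII.

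Levels between genes were compared in FPKM (fragments scaled to gene length and library size), since CPM grows with length. Over the 9 libraries the deposited FPKM averaged 166 for Ctsd, 126 for Lgmn, 79.0 for Amn, 72.6 for Ctsb, 40.0 for Ctsl, 38.8 for Lrp2, 31.6 for Dab2, 20.5 for Dpp7 and 10.8 for Cubn. Ctsd was above Lgmn in 8 of 9 libraries, Lgmn above Amn in 7, Amn above Ctsb in 6, Ctsl above Lrp2 in 5 and Lrp2 above Dab2 in 7, so these neighbours are not separated beyond their spread. Ctsb was above Ctsl, Dab2 above Dpp7 and Dpp7 above Cubn in 9 of 9 libraries. The receptor Cubn thus had the lowest mean of the 9.

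The gene length behind the deposited FPKM followed the merged exons of all transcripts listed for a gene, and that choice moved the order. For Ctsl the merged exons span 6441 bases, whereas the principal transcript Ctsl-201 has 1971 bases. Rescaled to the principal transcript, Ctsl averaged 131 FPKM, 3.27 times its deposited value, so that its mean passed those of Amn and Ctsb and lay below only Ctsd at 184 and Lgmn at 160. Dpp7 came to 40.7 FPKM by the same step, level with Lrp2 at 41.9, which exceeded it in 4 of 9 libraries. This alternative was chosen after seeing the data, and it leaves comparisons of 1 gene between groups as they were.

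**Figure D4:**
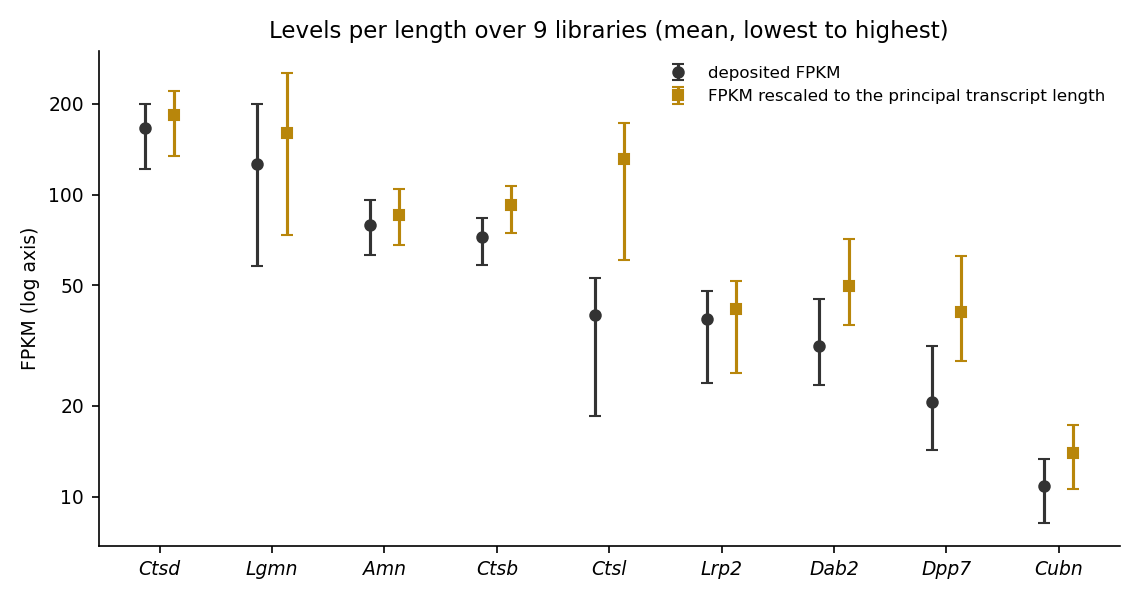
FPKM of the 9 genes on a log axis, as deposited (circles) and rescaled to the length of the principal transcript (squares), with points at the mean over 9 libraries and bars from the lowest to the highest library. Ctsl stands at 40.0 FPKM as deposited and at 131 FPKM after rescaling, while Cubn is lowest on both scales.

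Most of the 9 genes share no exons with neighbours that matter for these counts. Ctsb overlaps 774 bases of Fdft1 on the opposite strand, a gene with 993 to 1687 counts per library, and the strand setting of the counting is unknown here, so the Ctsb counts may include reads of Fdft1 or the reverse. The genes overlapping Cubn (Gm13270) and Dab2 (Gm16311 and Gm18888) had at most 28 counts in any library, and the one overlapping Ctsl (Gm49230) at most 1. A search of the principal transcripts against all GENCODE M21 transcripts at 95% identity found 809 of the 2127 bases of Ctsd-202 in Gm49369, not analysed here, and 774 of the 4743 bases of Ctsb-201 in Fdft1. The other genes shared at most 3.33%. The counting method is unknown here, so the Ctsd counts, and the ratios over Ctsd, may depend on how reads of the bases shared with Gm49369 were assigned.

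Promoters were read because the transcription factors TFEB and TFE3, known to drive lysosomal genes, bind elements built on the letters CACGTG, which read the same on both strands. RefSeq promoter windows of build GRCm38.p6, 250 bases before to 50 after each start, matched 8 of the 9 genes, and Ctsb was not among them. CACGTG occurred in the windows of 5 of the 8, namely Amn, Ctsd, Ctsl, Lgmn and Dpp7, and in 8.09% of the 27025 genes with such windows. The longer TCACGTGA, which contains it and also reads the same on both strands, occurred for Ctsd and Dpp7 and in 1.12% of genes. Lrp2, Cubn and Dab2 held neither. The 4 windows below lie outside annotated exons and are shown because they hold the shared letters, in capitals; a match is a description of the sequence and no measure of binding. The Dpp7 window lies on chr2:25356388-25356417, with the capitals beginning at position −73 from the RefSeq start. The Amn window lies on chr12:111271058-111271087 at position −26, and the Ctsd window on chr7:142388048-142388077 at position −245, all 3 outside any GENCODE M21 transcript. The Lgmn window lies on chr12:102439124-102439153 at position −49 from the second of its 2 RefSeq starts, in an intron of Lgmn. Amn is on the plus strand and the others on the minus strand.
Dpp7: ccgccagactatCACGTGatgctgccccgc
Amn: gccccgcccggtCACGTGgggccctcggag
Ctsd: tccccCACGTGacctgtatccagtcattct
Lgmn: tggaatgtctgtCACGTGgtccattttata
The TCACGTGA letters are in the Dpp7 window shown and, for Ctsd, in another match at position −98 that overlaps its annotated first exon.

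Around the 9 genes, 5 lists of other genes of the route were described: the uptake machinery, other lysosomal proteases and their inhibitors, other lysosomal hydrolases and membrane proteins, subunits of the V-ATPase (the proton pump that acidifies endosomes and lysosomes) and regulators of lysosomes. No gene of any list passed the edgeR test in any comparison. The genes named below were picked for the smallest p of their list, which favours libraries without overlap. The share of all genes lower without overlap in GRPR-AngII than in AngII is not given here. The median log2 fold change over all genes tested was −0.0063 for GRPR-AngII against AngII, 0.012 for CDH16KO-AngII against AngII and −0.014 between GRPR-AngII and CDH16KO-AngII. The 9 genes themselves had medians of −0.051, −0.13 and 0.29 in the same comparisons. Of the 9 values 5, 7 and 1 were negative, where 51%, 48.1% and 52.6% of all genes tested were.

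**Figure D5:**
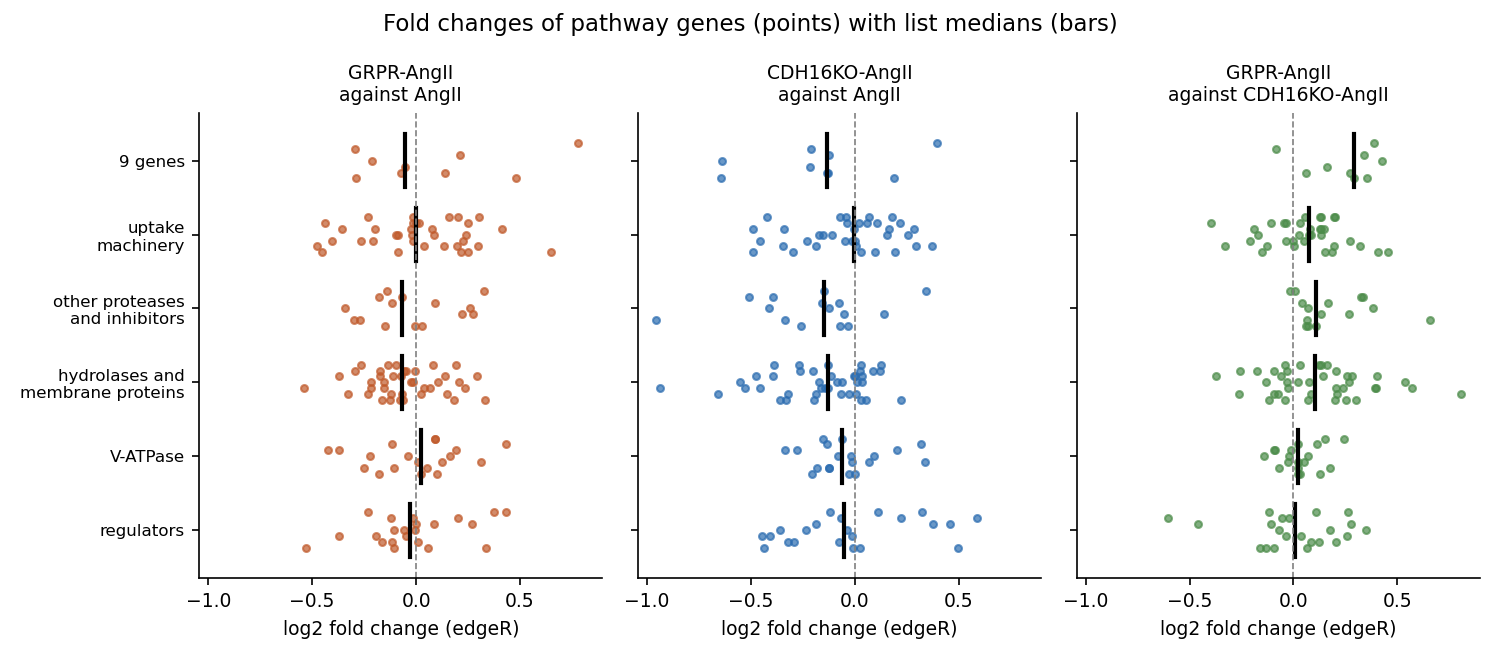
Log2 fold changes from the edgeR fit for the 9 genes and for the tested genes of 5 lists (points), with the median of each list as a black bar, in 3 comparisons. Medians of the lists lie within 0.15 of 0 in every panel, while the median of the 9 genes reaches 0.29 in GRPR-AngII against CDH16KO-AngII.

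Of the 36 genes of the uptake machinery, 35 were tested, and 17 were positive and 18 negative in GRPR-AngII against AngII (median −0.0018). The early endosome GTPases Rab5b and Rab5a had the smallest p there. Rab5a had 26.5, 33.8 and 24.6 CPM in GRPR-AngII against 40.6, 40.2 and 35.5 CPM in AngII, with no overlap (log2 fold change −0.45, SE 0.17, edgeR adjusted p = 0.732). Rab5b averaged 54.5 ± 7.79 CPM in GRPR-AngII libraries and 75.7 ± 17.0 CPM in AngII (SD, n = 3; log2 fold change −0.48), and its ranges overlapped. Appl1, an adaptor of early endosomes, averaged 14.4 ± 2.48 CPM in GRPR-AngII libraries and 19.5 ± 1.64 CPM in AngII, at −0.44 and without overlap. In CDH16KO-AngII against AngII, Clcn5, the endosomal chloride-proton exchanger whose loss in people impairs this uptake, had 29.2, 43.9 and 23.5 CPM in CDH16KO-AngII against 41.9, 51.4 and 42.6 CPM in AngII (log2 fold change −0.49, SE 0.23, edgeR adjusted p = 0.592). Its relative Clcn7, of lysosomes, was at 72.2, 74.9 and 88.1 CPM in CDH16KO-AngII against 61.1, 60.6 and 70.0 CPM in AngII (log2 fold change 0.30, SE 0.14), above without overlap.

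Of the other proteases and inhibitors, 15 of 18 were tested. In CDH16KO-AngII against AngII 13 of the 15 values were negative, with a median of −0.15. Scpep1, a serine carboxypeptidase, averaged 63.4 ± 18.6 CPM in CDH16KO-AngII libraries and 90.4 ± 13.5 CPM in AngII (log2 fold change −0.51, SE 0.20, edgeR adjusted p = 0.539). Ctss, cathepsin S of macrophages and other antigen-presenting cells, averaged 9.19 ± 2.12 CPM in CDH16KO-AngII libraries and 17.8 ± 7.79 CPM in AngII (log2 fold change −0.95, SE 0.37), and AngII library 2 at 8.97 CPM lay among the CDH16KO-AngII libraries. Ctsc, which activates serine proteases of immune cells, was at −0.41 and without overlap. Macrophage markers summed to 179 to 214 CPM in GRPR-AngII, 123 to 221 CPM in CDH16KO-AngII libraries and 130 to 238 CPM in AngII, with AngII library 2 the lowest of AngII and none of the 13 markers at 0 in all libraries, and their part in Ctss and Ctsc was not tested. In GRPR-AngII against AngII, 9 of 15 values were negative (median −0.066). There Ctsa, the protective protein of the lysosomal sialidase, averaged 348 ± 17.4 CPM in GRPR-AngII libraries and 287 ± 26.7 CPM in AngII (log2 fold change 0.28, SE 0.13, edgeR adjusted p = 0.732) without overlap, and the inhibitor Cstb was at −0.27 with overlap.

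The 40 hydrolases and membrane proteins were all tested. In both comparisons against AngII 27 of the 40 values were negative, with medians of −0.069 in GRPR-AngII and −0.13 in CDH16KO-AngII. Psap, the precursor of the saposins that help hydrolases reach lipids, had 599, 756 and 513 CPM in CDH16KO-AngII against 995, 1101 and 854 CPM in AngII. No library of one group reached the other (log2 fold change −0.66, SE 0.22, edgeR adjusted p = 0.421). In GRPR-AngII against CDH16KO-AngII, Psap was at 0.81 (SE 0.22, edgeR adjusted p = 0.282), the lowest adjusted p of the list. Gusb, beta-glucuronidase, averaged 12.8 ± 3.78 CPM in CDH16KO-AngII libraries and 18.8 ± 0.691 CPM in AngII (log2 fold change −0.55), also without overlap, while Arsb, arylsulfatase B, was at −0.94 (SE 0.38) with overlap. In GRPR-AngII against AngII, Neu1, the lysosomal sialidase, averaged 501 ± 16.6 CPM in GRPR-AngII libraries and 409 ± 17.7 CPM in AngII (log2 fold change 0.29, SE 0.14, edgeR adjusted p = 0.732). Its 3 GRPR-AngII libraries were all above the AngII libraries, as were those of Manba, beta-mannosidase, at 0.33. Neu1 and Ctsa are known to form 1 complex in the lysosome.

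All 19 subunits of the V-ATPase were tested, with medians of 0.024 in GRPR-AngII against AngII and −0.061 in CDH16KO-AngII against AngII. Atp6v0b, of the membrane ring, had 244, 222 and 209 CPM in GRPR-AngII, 216, 216 and 192 CPM in CDH16KO-AngII, and 142, 170 and 188 CPM in AngII. Its libraries of both Cre-positive groups lay above those of AngII. The log2 fold change was 0.43 in GRPR-AngII (SE 0.14, edgeR adjusted p = 0.685) and 0.32 in CDH16KO-AngII (SE 0.14, edgeR adjusted p = 0.590). Both comparisons share the AngII libraries, and the share of all genes tested that lie above AngII in both was not counted. Atp6v1f, of the cytosolic sector, was at 0.34 in CDH16KO-AngII against AngII without overlap. The subunits Atp6v1b1 and Atp6v0a4, known from acid-secreting intercalated cells, were at −0.37 and −0.42 in GRPR-AngII against AngII, and both overlapped.

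Among the regulators, 22 of 23 were tested, with 14 of the 22 negative in each comparison against AngII. Flcn, folliculin, which acts with the Rag GTPases to hold TFE3 and TFEB in the cytoplasm, had 55.1, 44.8 and 56.2 CPM in GRPR-AngII, 64.3, 50.9 and 59.3 CPM in CDH16KO-AngII, and 38.1, 43.0 and 42.7 CPM in AngII. All 6 Cre-positive libraries were above AngII. The log2 fold change was 0.33 in GRPR-AngII (SE 0.14, edgeR adjusted p = 0.732) and 0.50 in CDH16KO-AngII (SE 0.14, edgeR adjusted p = 0.289). Both comparisons share the AngII libraries, and the share of all genes tested that lie above AngII in both was not counted. Tfec, a relative of TFEB, averaged 31.4 ± 6.29 CPM in CDH16KO-AngII libraries and 20.9 ± 0.693 CPM in AngII (log2 fold change 0.59, SE 0.17, edgeR adjusted p = 0.307) without overlap. The autophagy receptor Sqstm1 had 411, 514 and 318 CPM in CDH16KO-AngII against 520, 652 and 524 CPM in AngII (log2 fold change −0.45), also without overlap. In GRPR-AngII against AngII, Wipi1, a protein of forming autophagosomes, was at −0.53 and Uvrag, a subunit of a lipid kinase complex of autophagy and endosomes, at 0.38, both without overlap and with an edgeR adjusted p of 0.732.

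The genes most like 4 of the 9 were named by Pearson's r of log2 CPM over all 9 libraries. They were taken from the 12507 genes tested, leaving out the 9 genes and predicted-gene or clone names such as Gm or Rik. A gene left out may be more alike than those named. This is a description that includes the differences between groups and shared library effects. Dpp7 was most like Tspan5 (r = 0.939), Trabd and Fgfr1op2. Amn was most like Zfp969 (r = 0.956), Faap20 and Prelid1. Ctsl was most like Slc17a1 (r = 0.991), a phosphate transporter gene of the proximal tubule, Hsd17b4 (r = 0.987), an enzyme of peroxisomal fatty acid oxidation, and Thoc3 (r = 0.984). Lrp2 was most like Eif3b (r = 0.974), a translation initiation factor subunit, Evi5 and Slc25a46.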

How the data were processed

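Per the labels' protocols, extraction used an RNeasy kit and total RNA went into a SMARTER mRNA-Seq kit. GRCm38 and mm10 are builds in the submitters' processing notes. Aligner, counter and strand setting were not given in the sources used here. The authors deposited whole-number counts, possibly rounded estimates, and FPKM values per the file headers. Genes passing an FPKM of 1 in 3 or more libraries were tested on counts with edgeR 4.0.16 (R 4.3.3), with TMM scaling, column totals as library sizes and 9 libraries in 1 quasi-likelihood fit without a block. CPM are counts per 1000000 after TMM scaling; log2 CPM used a prior count of 0.5. Alternatives were DESeq2 1.42.0, limma 3.58.1 on log2(FPKM + 1) and log2(FPKM + 0.1), RLE or no scaling, other filters, no mitochondrial genes, 2 groups only, a replicate block and leaving out each library. The fit was tested on simulated data. BLAST+ 2.17.0 and matplotlib 3.10.9 (Python 3.11.15) were used.

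The 9 genes, the lists and the naming rule were chosen with earlier results of these data known. The rule named the 9 genes, the 3 smallest p of each list in each comparison against AngII, the 3 genes most like 4 of the 9, and the highest marker of each cell type list. A gene named by it is not reported here. Psap in GRPR-AngII against CDH16KO-AngII and Ctsl and Dpp7 over Ctsd were chosen after values were seen.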

Additional observations from a re-analysis of the deposited data

How the results depend on the processing

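No alternative called any of the 9 genes, except DESeq2, which called 1 (Dpp7 in GRPR-AngII against AngII). Over all genes, the count of calls in CDH16KO-AngII against AngII was 21, but 210 with DESeq2, 3 with an FPKM of at least 5, 2 without CDH16KO-AngII library 3 and GRPR-AngII library 3 together (chosen after seeing the data), and 0 to 42 when 1 library was left out. In GRPR-AngII against AngII it was 0, but 45 with DESeq2 and 0 to 2 when 1 library was left out. In GRPR-AngII against CDH16KO-AngII it was 18, but 175 with DESeq2, 41 with no filter on low values, 9 with 2 groups only, 5 with an FPKM of at least 5, 0 without both libraries 3, and 0 to 50 when 1 library was left out. The count of calls among the 9 genes stayed at 0 when 1 library was left out. The cause was not tested.

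Of 540 values of the 9 genes under the alternatives, 11 changed sign. Leaving out 1 library moved CDH16KO-AngII against AngII between −0.36 and 0.067 for Lrp2, −0.32 and 0.089 for Cubn, and −0.43 and 0.025 for Dab2. It moved GRPR-AngII against AngII to −0.015 and 0.23 at the extremes for Lrp2, between −0.13 and 0.0020 for Ctsb, and between −0.15 and 0.047 for Ctsd. It moved GRPR-AngII against CDH16KO-AngII between −0.21 and 0.13 for Dab2 and between −0.020 and 0.18 for Ctsb. Without both libraries 3, Lrp2 gave 0.054 in CDH16KO-AngII against AngII, and Ctsb 0.0020 and Ctsd 0.047 in GRPR-AngII against AngII. None of the 592 values of named list genes changed sign or were called, and 5 of 300 list medians moved by more than the spread between libraries. With the replicate number as a block, the calls were 26, 0 and 13 genes in CDH16KO-AngII against AngII, GRPR-AngII against AngII and GRPR-AngII against CDH16KO-AngII, with 0 of the 9 genes. Libraries of the same number correlated at −0.089 to 0.23 in their deviations, with 6 of 9 pairs over 0.1. Each library was also set against the 3 libraries of each other group, 1 of which has the same number. In 13 of these 18 cases the library of the same number correlated best. Whether the numbers pair the libraries was not settled, and the main fit had no block. With the block, the SE in CDH16KO-AngII against AngII was 0.19 for Ctsl (edgeR adjusted p = 0.201) and 0.21 for Lgmn (edgeR adjusted p = 0.234). Without it these SEs were 0.26 and 0.33. Of the 9 genes, only Cubn had a larger SE with the block in that comparison, at 0.223 against 0.217 without it. With 3 libraries a group, the intervals above set what could be seen.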

Other observations

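Lists of cell type markers were compared in the same fit, and no marker of any list passed the edgeR test in any comparison. The 18 proximal tubule markers had a median log2 fold change of 0.0080 in GRPR-AngII against AngII, −0.24 in CDH16KO-AngII against AngII (14 of 18 negative) and 0.16 in GRPR-AngII against CDH16KO-AngII. The 10 markers of the loop of Henle and distal convoluted tubule had medians of −0.11, 0.22 and −0.33 in these comparisons, and their leading gene Umod, uromodulin, averaged 503 FPKM in GRPR-AngII, 621 FPKM in CDH16KO-AngII and 670 FPKM in AngII. The 11 collecting duct markers, led by the water channel Aqp2, had medians of −0.14, −0.20 and 0.13. The 8 macrophage markers tested, led by the lysozyme gene Lyz2, had medians of −0.19, −0.32 and 0.34. The 10 markers of fibroblasts, pericytes and smooth muscle that were tested, led by Acta2, had medians of 0.32, 0.24 and 0.16.

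The 6 tubular injury genes tested, led by osteopontin (Spp1), had medians of −0.44 in GRPR-AngII against AngII, −0.39 in CDH16KO-AngII against AngII and −0.084 in GRPR-AngII against CDH16KO-AngII. All 10 injury genes listed, tested or not, summed to 728 to 1084 CPM in GRPR-AngII, 933 to 1009 CPM in CDH16KO-AngII and 1062 to 1773 CPM in AngII. Markers of podocytes (led by Podxl) had medians of −0.097, 0.033 and 0.012 in the 3 comparisons, and those of endothelium (led by Egfl7) −0.0017, 0.047 and −0.068. The 4 lymphocyte markers tested (led by Trac) had medians of 0.14, −0.095 and 0.67. All 10 lymphocyte markers listed, tested or not, summed to 13.8 to 42.1 CPM in GRPR-AngII, 18.6 to 21.5 CPM in CDH16KO-AngII and 16.1 to 36.1 CPM in AngII.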
